A study of Mus musculus with 4 samples.

Results

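The integrated stress response genes described here are 10 mouse genes, namely the 4 eIF2α kinases Eif2ak1, Eif2ak2, Eif2ak3 and Eif2ak4, the phosphatase subunits Ppp1r15a and Ppp1r15b, and the effectors Atf4, Ddit3, Trib3 and Chac1. They are 10 of the 21911 protein-coding genes annotated on the assembled chromosomes. All peaks in each gene body or in the 10 kb on either side were collected from 4 peak lists of Foxr2 binding. The set was chosen by the folds measured at Ppp1r15b, whose promoter held one of the strongest reproducible sites in these data, so the Ppp1r15b values are given as a description and the counts over the set support nothing further.

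Binding was profiled by CUT&RUN, in which an antibody guides a nuclease to a protein on DNA and the freed fragments are sequenced. The antibody recognised the V5 tag. Foxr2 p53LOF cells were a neurosphere line from tumors of C57BL/6J mice made by in utero electroporation, with V5-tagged FOXR2 driven by the CAG promoter from a piggyBac vector and with p53 loss of function through CRISPR. The V5 control was of genotype H3.3G34R and of the same strain, from a separate in utero electroporation model lacking the tag. The methods speak of control cell lines, so its replicates may come from more than 1 line. Both groups therefore came from electroporated tumor models. Each group is a single genotype that differs from the other in more than the tag, so a line difference and a tag difference cannot be told apart. Each sample held 500000 cells cross-linked in 0.1% formaldehyde for 1 minute, with 2 replicates per group. Nothing states that replicates were separate cultures, so the spread between them may be technical.

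In the integrated stress response, kinases that sense different stresses phosphorylate the α subunit of eIF2, which lowers general protein synthesis while favouring translation of the transcription factor ATF4. ATF4 and its target CHOP, the product of Ddit3, activate genes of amino acid supply, redox balance and cell death. The phosphatase subunits encoded by Ppp1r15a and Ppp1r15b bring protein phosphatase 1 to eIF2α and close the response. FOXR2 is a forkhead transcription factor, and CUT&RUN shows where such a protein lies on DNA but not whether a nearby gene is transcribed.

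The 2 Foxr2 p53LOF lists held 31909 and 38580 peaks, against 308 and 124 in the control lists. A peak was kept where its fold exceeded 6, its −log10 q exceeded 6, its length was under 10000 bp and no control peak overlapped it by 10 bp or more. The fold divides the summit fragments, with 1 added, by the library's background, also with 1 added. A fold above 6 required 13 fragments in replicate 1 and 18 in replicate 2. Sites are the overlaps between kept peaks of replicate 1 and of replicate 2, called reproducible here, and the 11943 on assembled chromosomes were ranked by the lower of their 2 folds. Folds carry 95% exact Poisson intervals that cover counting error only. Over Foxr2 itself, each tagged replicate had 1 peak, with folds of 5.74 and 6.24, and neither control replicate had any.

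Foxr2 sites lay at the starts of 9 of the 10 genes, and the exception was Eif2ak2. The same 9 genes had a site in the wider gene region, where 50.0% of all protein-coding genes had one, and within 1 kb of a start 39.2% of all genes had one. Start sites went with CpG content. CpG content was the observed over expected ratio in the 1000 bp around each gene's most upstream start, here called its first start. A start site may lie at another annotated start of the gene, whose CpG content was not measured. With a ratio of at least 0.6, 68.2% of 10212 genes had a start site, against 13.9% of the 11699 genes below that ratio. The ratio was at least 0.6 at 9 of the 10 first starts, and it was 0.456 at Eif2ak2. With 9 CpG-rich starts, the set's count is read against 68.2%, and whether the set differs from CpG-rich genes in general was not tested.

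The regions held 24 peaks in replicate 1 and 25 in replicate 2 before the filter, of which 18 and 17 were kept. Neither control list had a peak in any of the 10 regions, where 0.557% of all genes had one. Peaks of both tagged replicates before the filter lay in the regions of 63.7% of all genes. The kept peaks formed 17 sites, 10 of them at the genes' own starts. Of the other 7, 3 lay at the start of a neighboring gene and 4 had no protein-coding start within 1 kb.

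**Figure D1:**
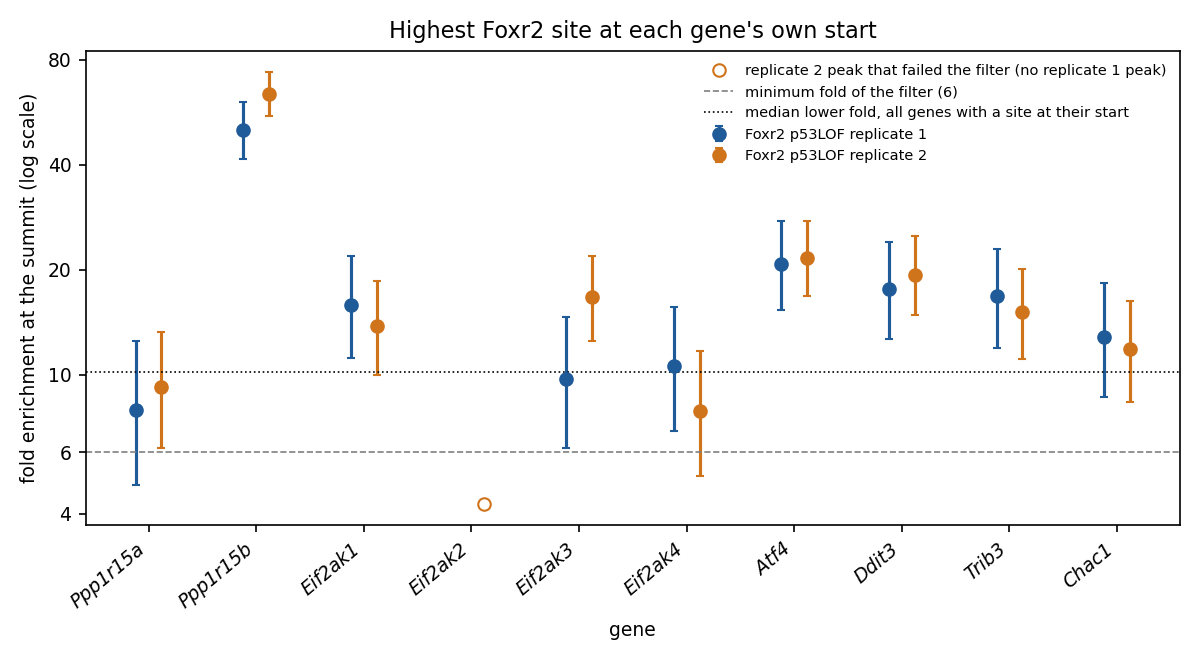
Fold enrichment (log scale) at the highest own-start site of each gene in Foxr2 p53LOF replicates 1 (blue) and 2 (orange), with 95% counting intervals; the open circle is an Eif2ak2 peak that failed the filter. Ppp1r15b stands above every other gene of the set in both replicates, and 6 of the 9 genes with a site have a lower fold above the dotted all-gene median of 10.2.

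Promoter sequences were read from the RefSeq table for GRCm38.p6, which matched 9 of the 10 genes, all but Ppp1r15b, with 10 promoters. Shown here are the promoters that lie inside a Foxr2 site and hold CCGGAA or a CARE, followed by the promoter of Eif2ak2, which had no site. The promoters of Eif2ak4, Trib3 and Ppp1r15a, also inside sites, held neither and are not shown. The display was therefore chosen by its letters and cannot relate them to binding. Each runs from 250 bases before the RefSeq start to a point just past it, 5′ to 3′ on the gene's strand. Capitals mark CCGGAA or TGATGCAA on either strand. CCGGAA is a form of the sequence bound by ETS factors, and other forms are not marked, so uncapitalised stretches may hold them. TGATGCAA is the C/EBP-ATF response element (CARE) to which ATF4 binds with its partners.
Eif2ak1 (chr5:143817542-143817817, plus strand): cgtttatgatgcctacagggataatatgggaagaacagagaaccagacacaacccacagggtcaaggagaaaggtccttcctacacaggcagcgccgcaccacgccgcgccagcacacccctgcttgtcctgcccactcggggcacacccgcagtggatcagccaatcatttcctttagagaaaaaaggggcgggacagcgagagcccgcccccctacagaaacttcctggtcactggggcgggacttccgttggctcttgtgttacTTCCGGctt
Eif2ak3 (chr6:70844265-70844544, plus strand): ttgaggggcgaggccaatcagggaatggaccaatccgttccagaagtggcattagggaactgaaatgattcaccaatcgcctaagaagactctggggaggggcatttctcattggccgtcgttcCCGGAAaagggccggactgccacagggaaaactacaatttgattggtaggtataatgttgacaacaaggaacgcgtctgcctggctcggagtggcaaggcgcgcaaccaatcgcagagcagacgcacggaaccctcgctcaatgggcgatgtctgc
Atf4 (chr15:80254934-80255213, plus strand): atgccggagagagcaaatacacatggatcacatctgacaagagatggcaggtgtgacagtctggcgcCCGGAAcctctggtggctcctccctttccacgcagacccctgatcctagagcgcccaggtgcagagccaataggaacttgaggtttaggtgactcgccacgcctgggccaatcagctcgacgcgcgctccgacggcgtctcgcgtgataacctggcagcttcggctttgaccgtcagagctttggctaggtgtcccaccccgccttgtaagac
Ddit3 (chr10:127290543-127290803, plus strand): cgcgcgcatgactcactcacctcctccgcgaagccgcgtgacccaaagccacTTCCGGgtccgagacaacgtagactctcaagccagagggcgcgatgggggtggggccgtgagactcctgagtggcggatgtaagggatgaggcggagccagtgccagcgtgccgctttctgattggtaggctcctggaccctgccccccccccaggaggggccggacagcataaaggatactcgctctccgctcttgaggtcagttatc
Chac1 (chr2:119350992-119351258, plus strand): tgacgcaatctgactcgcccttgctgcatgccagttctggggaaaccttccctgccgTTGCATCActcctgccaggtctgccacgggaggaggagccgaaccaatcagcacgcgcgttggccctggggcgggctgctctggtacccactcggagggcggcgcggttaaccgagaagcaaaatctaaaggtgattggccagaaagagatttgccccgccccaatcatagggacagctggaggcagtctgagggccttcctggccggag
Eif2ak2 (chr17:78882544-78882822, minus strand): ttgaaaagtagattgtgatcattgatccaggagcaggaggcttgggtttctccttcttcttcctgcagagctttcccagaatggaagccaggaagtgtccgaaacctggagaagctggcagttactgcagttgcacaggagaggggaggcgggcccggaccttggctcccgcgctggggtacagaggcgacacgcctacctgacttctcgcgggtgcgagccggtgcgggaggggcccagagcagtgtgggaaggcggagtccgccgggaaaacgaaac

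The most enriched site of the set was at Ppp1r15b, which encodes the constitutive eIF2α phosphatase subunit CReP. It spanned chr1:133128833-133133354 in mm10 and covered the only annotated start. The fold was 50.4 in replicate 1 (95% interval 41.6 to 60.5, 113 fragments) and 64.1 in replicate 2 (55.4 to 73.7, 194 fragments). The site ranked 8 of 11943. The intervals of the 2 replicates overlapped, while the highest fold at any other start of the set was 21.7. Its summits lay upstream of the start, 200 bp away in replicate 1 and 193 bp away in replicate 2, and so 7 bp from each other.

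Sites of adjacent rank were close in value. The site ranked 7 had folds of 54.8 and 63.4. The site ranked 9, at Ppp2r5a, had 49.9 and 64.4. Ppp2r5a, which encodes a regulatory subunit of protein phosphatase 2A, was also the gene whose start site was most like that of Ppp1r15b in the log2 folds of the 2 replicates, at a log2 distance of 0.015. The next were 0610009B22Rik at 0.054 and Rnf44, a RING finger gene, at 0.081. This likeness rests on 2 libraries and on the same folds as the ranking, in which these genes held ranks 9, 10 and 11. Their folds lay within the counting intervals of Ppp1r15b in both replicates, so their order is not resolved. A link in function was not tested.

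The Ppp1r15b peak was longer in replicate 2, with 9059 bp against 4522 bp in replicate 1. Replicate 1 had weaker peaks on both flanks of the site, with folds of 3.53 and 4.86, that failed the filter. Because of the difference in length, a rule that the overlap cover at least 50% of each peak would not count this site, although the summits nearly coincide. Replicate 2 had a further kept peak beyond the gene's 3′ end, with a fold of 6.57 and no partner in replicate 1.

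Ppp1r15a encodes GADD34, the stress-induced counterpart of CReP, and its sites were among the weakest of the set. The site at its first start, chr7:45525398-45526869, had folds of 6.63 and 9.86 in the 2 replicates. The replicate 1 interval of 3.82 to 10.8 included the minimum of 6. Plekha4, a pleckstrin homology domain gene, starts on the other strand within 1 kb, so that the site cannot be assigned to either gene. A second site, chr7:45521425-45522835, had folds of 7.95 and 9.20 and lay past the 3′ end of Ppp1r15a, inside the body of Tulp2. It counts as a start site only because an internal transcript start of Ppp1r15a is within 1 kb, and its summits were 1908 and 1837 bp from that start. The palindromic cAMP response element TGACGTCA lay 12 bases before the RefSeq start of Ppp1r15a and between the summits of the first site, 111 bp from that of replicate 1 and 202 bp from that of replicate 2.

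**Figure D2:**
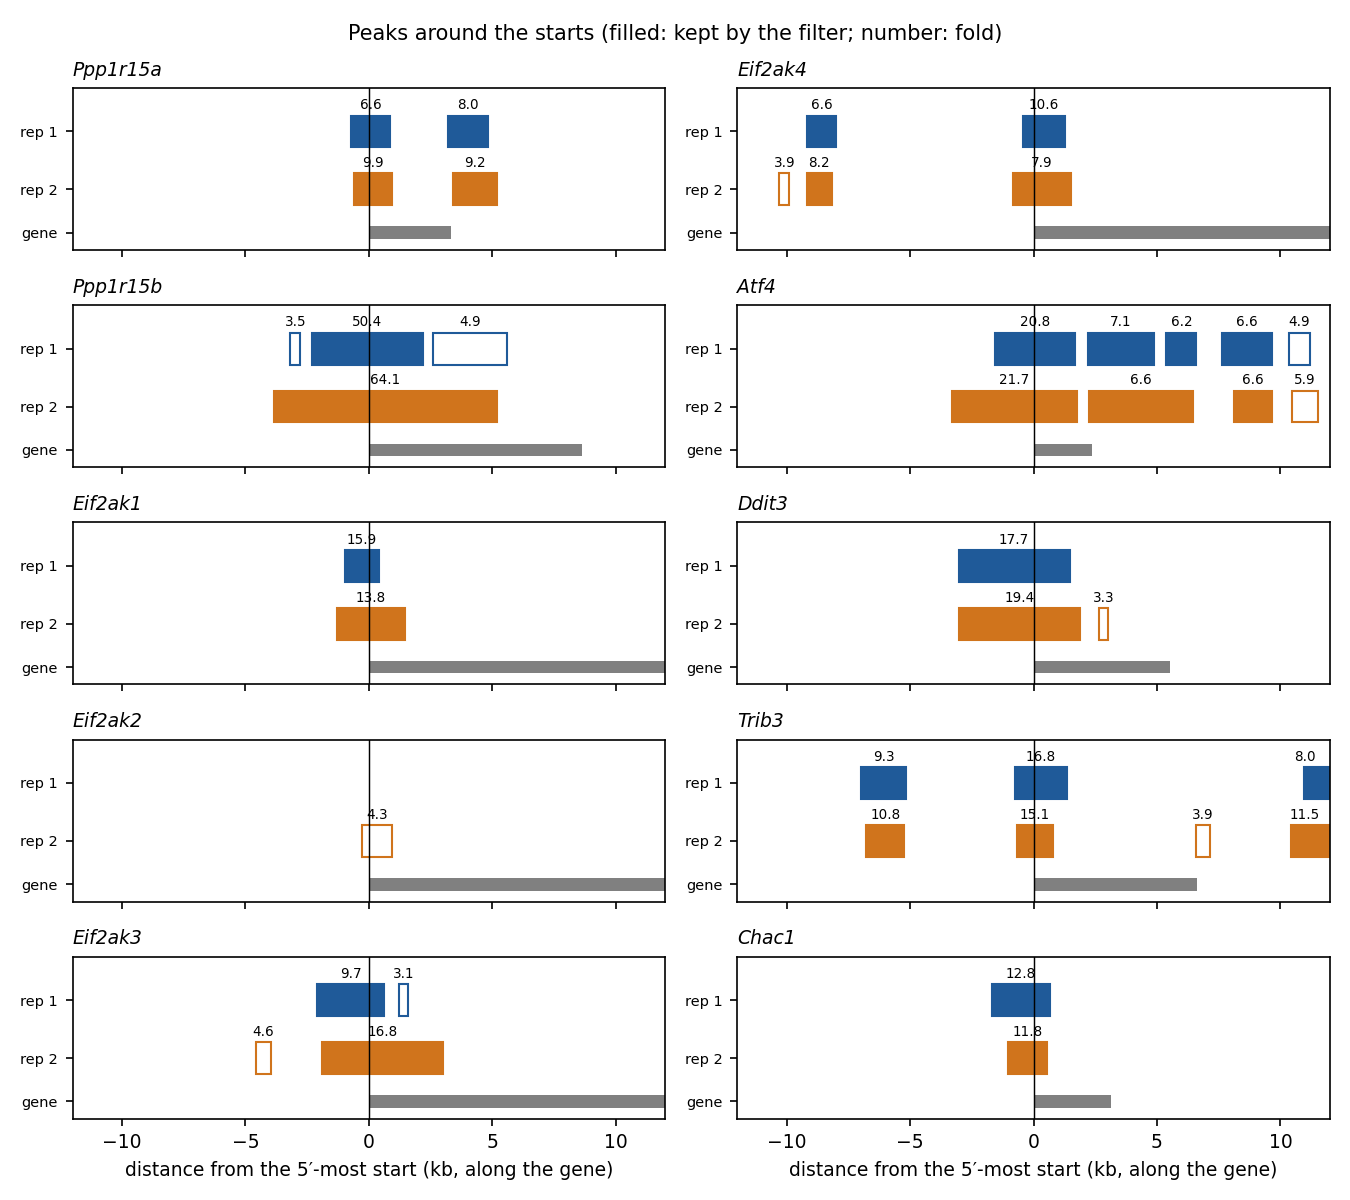
Called peaks within 12 kb of the first start of each gene, by distance along the gene in kb. Only peaks that reach the gene body or the 10 kb on either side are drawn. Filled boxes are peaks that passed the filter and open boxes peaks that failed it, with the fold above each box and the gene body in gray. Peaks cluster on the start (vertical line) in 9 genes, Eif2ak2 has a single open box with a fold of 4.27, and the control libraries had no peak to draw.

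Among the kinases, Eif2ak1 had the highest start site by the lower fold, at 13.8, followed by Eif2ak3 at 9.72 and Eif2ak4 at 7.88, and Eif2ak2 had none. In replicate 2 alone, Eif2ak3 at 16.8 was above Eif2ak1. Eif2ak1 encodes HRI, which responds to heme shortage and relays mitochondrial stress. Its start site, chr5:143816827-143818187, had folds of 15.9 (11.2 to 21.9) and 13.8 (9.99 to 18.6) and ranked 2054. The summits lay 425 and 317 bp upstream. The replicate 2 peak was 2774 bp long against 1361 bp in replicate 1, and this start site was also not counted when 50% of each peak had to be shared. A stronger site in the Eif2ak1 region, with folds of 25.6 and 25.0 and rank 271, lay past its 3′ end at the starts of Aimp2, a scaffold of the tRNA synthetase complex, and Pms2, a mismatch repair gene.

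Eif2ak3 encodes PERK, the kinase of the endoplasmic reticulum. Its site, chr6:70842624-70845150, had a fold of 9.72 in replicate 1 (6.18 to 14.6, 21 fragments) and 16.8 in replicate 2 (12.5 to 21.98, 50 fragments). The ratio of replicate 2 to replicate 1, 1.72, was the highest among the set's 17 sites, and the intervals overlapped. The summits were 52 bp inside the untranslated region and 158 bp upstream. Deep in the gene body, peaks of replicate 1 at 26703 and 27664 bp and a peak of replicate 2 at 27212 bp from the start all failed the minimum fold, with folds of 4.86, 3.53 and 5.59.

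Eif2ak4 encodes GCN2, which senses uncharged tRNA when amino acids run short. The start site, chr2:118388178-118389900, had folds of 10.6 (6.88 to 15.7) and 7.88 (5.12 to 11.7), from 23 fragments in each replicate. It lay over several annotated starts, with the replicate 1 summit in a coding exon and the replicate 2 summit in an intron. Another site, 8859 bp upstream of the first start, had folds of 6.63 and 8.21, lower than the start site in replicate 1 only. Of the set's 17 sites, the Eif2ak4 start site had the lowest ratio of the replicate 2 to the replicate 1 fold, at 0.744.

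Eif2ak2 encodes PKR, which is activated by double-stranded RNA. Replicate 1 had no peak in its region. Replicate 2 had 1 peak over the start, with a fold of 4.27 from 12 fragments, below the 18 fragments that the minimum fold required. The nearest reproducible site lay 29.9 kb outside the gene and had folds of 6.19 and 8.54.

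Each of the 4 effectors had a start site with a lower fold above 10, which 19.7% of all protein-coding genes had. Atf4, the transcription factor of the response, had the highest, chr15:80253627-80256877, at rank 563. Its folds were 20.8 (15.3 to 27.5) and 21.7 (16.8 to 27.5), nearly equal between replicates. The position was less settled than the height, since the replicate 1 summit lay 257 bp upstream and the replicate 2 summit 619 bp inside the gene, in an intron. At 877 bp, this gap exceeded the 639 bp that marked the 90th percentile over all sites.

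Downstream of Atf4 came 3 weak sites, with folds of 7.07 and 6.57, of 6.19 and 6.57, and of 6.63 and 6.57. The first pair of these shared a single replicate 2 peak of 4234 bp, and the last lay at the start of Rps19bp1, which encodes a binding partner of a ribosomal protein. The values of 6.19 and 6.57 were the lowest of any site in the set. Just outside the filter, a replicate 2 peak further downstream had a fold of 5.91.

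Ddit3 encodes CHOP, a transcription factor linked to cell death under prolonged stress. Its site, chr10:127287768-127292230, had folds of 17.7 (12.7 to 24.0) and 19.4 (14.8 to 25.0) and ranked 965. The summits were 546 and 518 bp upstream of the start. Because the site also covered the start of Mbd6, a methyl-CpG-binding domain gene, it cannot be assigned to Ddit3 alone. Over all genes with a start site, 15.01% of the best sites lay near the starts of 2 or more genes.

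Trib3 encodes a pseudokinase that ATF4 and CHOP induce and that binds the kinase AKT, and its region held 3 sites. The start site, chr2:152343258-152344721, had folds of 16.8 (12.0 to 23.0) and 15.1 (11.1 to 20.1) and ranked 1564, with summits 206 and 231 bp inside the gene in an intron. A site upstream, chr2:152349270-152350815, had folds of 9.28 and 10.8, with summits 6237 and 5766 bp from the start and no protein-coding start nearby. A site past the 3′ end, with folds of 7.95 and 11.5, was at the start of Rbck1, a ubiquitin ligase subunit gene.

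In 200 bp windows centered midway between the 2 summits of each site, the upstream Trib3 site was the only one of the set's 17 with a CARE. Its summits were 471 bp apart, so the window held neither, and the CARE lay between them, 185 bp from that of replicate 1 and 279 bp from that of replicate 2. The sequence is shown on the strand of Trib3 with the CARE in capitals, read from the GRCm38.p6 genome, because it is the single such window of the set with a letter match to the ATF4 element.
Trib3 distal (chr2:152349933-152350132, minus strand): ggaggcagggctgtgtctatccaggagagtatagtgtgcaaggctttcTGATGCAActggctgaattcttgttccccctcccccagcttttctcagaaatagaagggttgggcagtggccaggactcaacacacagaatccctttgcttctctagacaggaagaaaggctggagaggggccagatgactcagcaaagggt

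Chac1 encodes an enzyme that breaks down glutathione and is induced by ATF4 and CHOP. Its only site, chr2:119350207-119351789, had folds of 12.8 (8.66 to 18.3) and 11.8 (8.34 to 16.3) and ranked 3170. The summits, 370 and 366 bp upstream, were 4 bp apart. The CARE in its RefSeq promoter lay 193 bases before the RefSeq start, inside the site but not in the 200 bp around the summits.

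**Figure D3:**
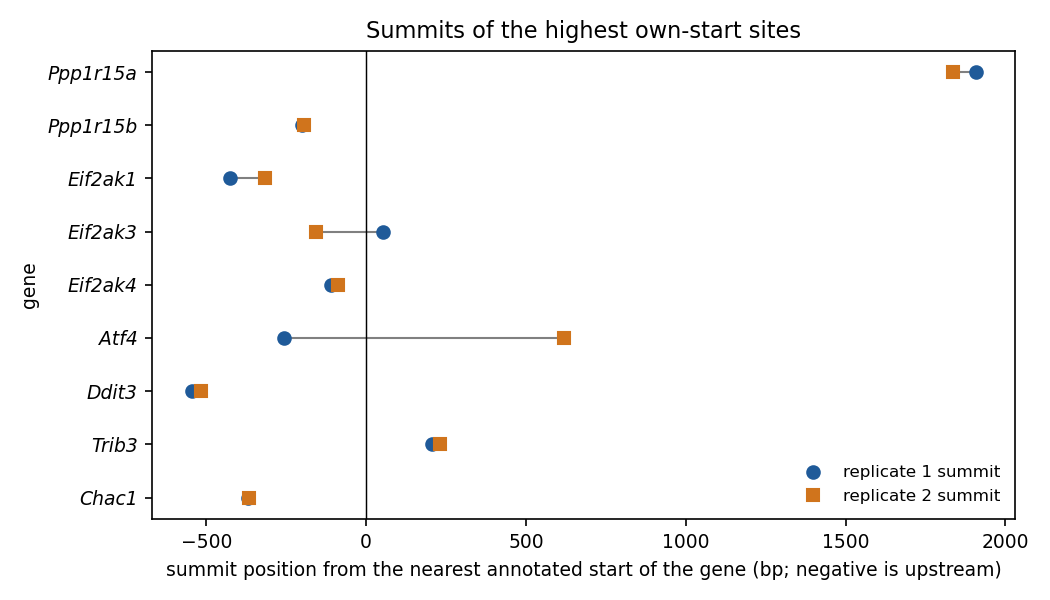
Position of the replicate 1 summit (circle) and the replicate 2 summit (square) of the highest own-start site, in bp from the nearest annotated start of the gene, negative upstream. Summits of Ppp1r15b and Chac1 nearly coincide between replicates, those of Atf4 lie 877 bp apart, and those of Ppp1r15a are 1837 and 1908 bp downstream of an internal start and past the 3′ end of the gene.

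Across the 9 genes with a start site, the median lower fold at the best one was 13.8, against 10.2 over all genes with a start site, and 6 of the 9 were above that median. The members above it were Ppp1r15b, Eif2ak1, Atf4, Ddit3, Trib3 and Chac1, and those below it were Ppp1r15a, Eif2ak3 and Eif2ak4. In order of the lower fold, Atf4, Ddit3, Trib3, Eif2ak1 and Chac1 followed Ppp1r15b, and the intervals of each neighboring pair among these 5 overlapped in both replicates. The distance of Ppp1r15b from the rest follows from how the set was chosen and is given as a description. Replicate 2 had the higher fold in 5 of the 9. It did so at 75.1% of all sites, which include sites away from starts, and the share among best start sites alone was not computed. A minimum fold of 10 left 6 genes with a site, without Ppp1r15a, Eif2ak3 and Eif2ak4.

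The 8 motifs were searched in these windows at the midpoint of the 2 summits. Where the summits lay too far apart the window held neither of them, which was so for 4 of the 10 own-start windows, namely the first site of Ppp1r15a and those of Eif2ak3, Eif2ak4 and Atf4, and for 36.5% of the windows of all sites. Of the 10 windows at own starts, CCGGAA was in 1, that of Eif2ak3, at 211 bp from the replicate 1 summit and 32 bp from the replicate 2 summit. It was in 14.8% of the 7486 windows of sites near a start and in 10.8% of the 11943 windows of all sites. TGACGTCA was in 1, that of Ppp1r15a, and in 0.989% of windows near starts and 0.812% of all. CCAAT was in 2, those of Eif2ak3 and Ddit3, and in 18.1% of windows near starts and 19.0% of all. GGGCGG, the GC box, was in 2, those of Atf4, at 439 and 433 bp from the summits, and Chac1, at a summit, and in 40.6% of windows near starts and 29.2% of all. The CARE was in none of the 10, and in 0.307% of windows near starts and 0.519% of all. CCGGAAGT, which contains CCGGAA, as well as GCGCATGC of NRF1 and AAGATGGC of YY1, were in none of the 10, and in 2.57%, 1.96% and 2.42% of windows near starts. The window of Ppp1r15b held none of the 8 motifs.

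In the RefSeq promoters, from 250 bases before to 50 after each start, CCGGAA was found in 4 of the 9 matched genes, Eif2ak1, Eif2ak3, Atf4 and Ddit3, and in 14.9% of all 32851 promoters. CCGGAAGT was in Eif2ak1 and Ddit3, and in 3.89% of all. In the sequences above, the match lay 126 bases before the start of Eif2ak3, 183 before that of Atf4 and 198 before that of Ddit3, and in Eif2ak1 it began at base 17 past the start. Atf4 had another match just beyond the stretch shown. The CARE was in the promoter of Chac1 alone and in 0.895% of all, and TGACGTCA was in that of Ppp1r15a alone and in 1.79% of all. GCGCATGC and AAGATGGC were in none of the 9, and in 2.71% and 2.75% of all. GGGCGG was in 4 genes and 35.7% of all promoters, and CCAAT in 5 genes and 37.4% of all. Every motif was searched on both strands, and a match describes letters only.

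Another 57 genes of the pathway, in 7 lists, were examined in the same way. A site lay in the regions of 51 (89.5%, against 50.0% of all protein-coding genes) and at the starts of 49 (86.0%, against 39.2% of all). Of the 57 first starts, 47 had a CpG ratio of at least 0.6, and among all genes with such a ratio 68.2% had a start site. No control peak lay in any of the 57 regions, where 0.557% of all genes had one. The lower fold was above 10 at 33 of the 57 starts, against 19.7% of all genes, and the median over the 49 was 11.5, against 10.2 over all genes with a start site. These lists were chosen with results of these data known, and whether they differ from other CpG-rich genes was not tested.

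Genes of amino acid synthesis and transport, many of them ATF4 targets, had the highest folds of the lists. All 14 had a start site, as did 39.2% of all genes, and 13 had a lower fold above 10, as did 19.7% of all genes. The median was 20.5 with a range of 9.53 to 36.5, against the all-gene median of 10.2. The highest was Aldh18a1, which encodes the enzyme that opens proline synthesis, with folds of 38.4 and 36.5 at rank 43. The CpG ratio was at least 0.6 at the first start of 9 of these 14 genes. A start site can lie at a start other than the first, so this count does not give the CpG content at each site. Aldh18a1 was still below Ppp1r15b in both replicates.

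The subunits of eIF2 and of its exchange factor eIF2B had start sites in 6 of 8 genes, with a median of 9.72. The highest by the lower fold, though not in replicate 2, was Eif2s2 with folds of 17.2 and 21.7. All 7 regulators of the kinases had a start site, with a median of 8.87. Impact, an inhibitor of GCN2, led by the lower fold, though not in replicate 2, with 12.4 and 18.1. Of the 3 catalytic subunits of protein phosphatase 1, which Ppp1r15a and Ppp1r15b recruit, 2 had a start site, the higher being Ppp1cb with 10.6 and 11.8. Against these counts, 39.2% of all genes and 68.2% of CpG-rich genes had a start site, and the starts were CpG-rich in 8 of 8, 6 of 7 and 3 of 3 genes of the lists. The medians of 9.72 and 8.87 were below the all-gene median of 10.2.

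Partners of ATF4 in the bZIP family, listed with the stress protein gene Nupr1, had start sites in 4 of 5 genes, with a median of 10.9, the highest at Atf5 with 18.6 and 19.4. Other stress targets had them in 7 of 10, with a median of 13.1, led by Ddit4, an inhibitor of mTORC1, with 21.7 and 24.3. Fgf21, a secreted metabolic hormone, and Tnfrsf10b, a death receptor, had no peak in either tagged replicate. Genes of the other arms of the unfolded protein response, all 10 with CpG-rich starts, had start sites in 9 of 10, with a median of 11.5, led by Hsp90b1, an endoplasmic reticulum chaperone, with 24.7 and 26.6. The CpG ratio was at least 0.6 at the first start of 3 of the 5 bZIP list genes and of 8 of the 10 stress targets. Over all genes 39.2%, and over CpG-rich genes 68.2%, had a start site, so that 7 of 10 stress targets is near the latter share.

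The remaining genes without a site, named after their values were seen, were Eif2b2, Ppp1cc, Nupr1 and Sel1l. Each had a peak over the start in at least 1 tagged replicate. At Eif2b2 the start peaks had folds of 7.07 and 5.59, and at Ppp1cc 6.63 and 5.91, so that both lay at the edge of the filter. Eif2b5 and Gdf15, also named after their values were seen, had a site in the region but not at the start. The Gdf15 site had folds of 16.3 and 14.8 with summits 1855 and 1919 bp from its start.

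**Figure D4:**
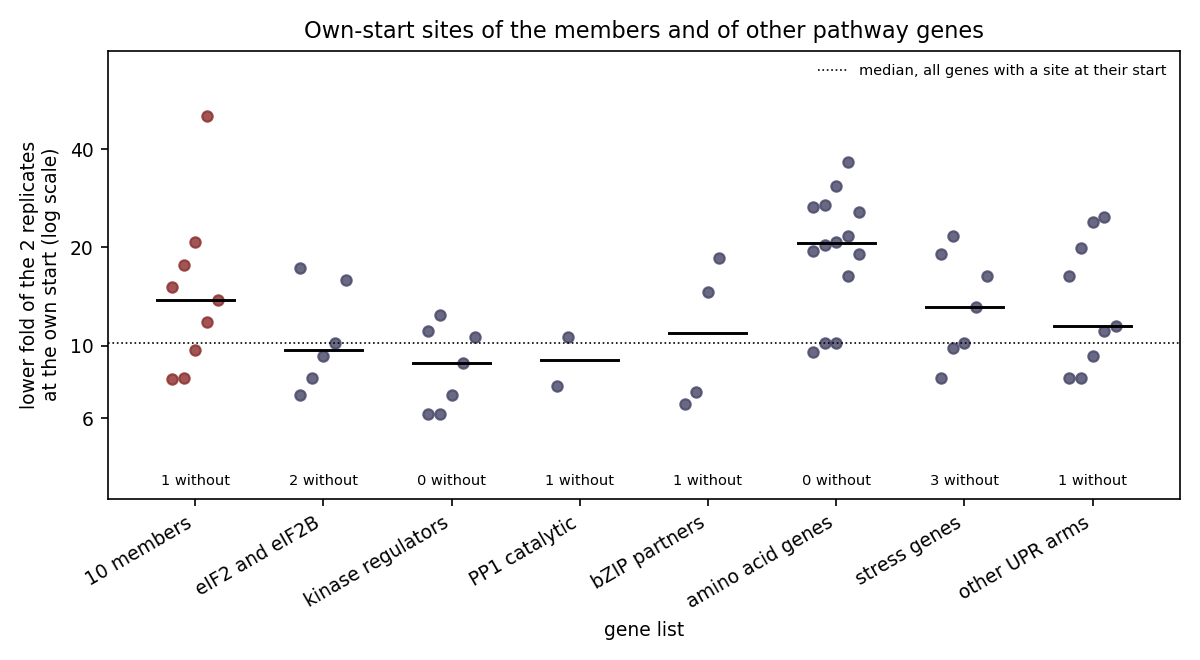
Lower fold of the 2 Foxr2 p53LOF replicates (log scale) at the best own-start site of each gene, for the 10 genes and the 7 other pathway lists, with bars at list medians, the number of genes without such a site below and the all-gene median of 10.2 dotted. The amino acid genes lie highest as a list with a median of 20.5, and Ppp1r15b is the highest single gene.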

How the data were processed

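V5 CUT&RUN peaks of 2 Foxr2 p53LOF and 2 V5 control replicates were used as deposited, 1 list per library. Per the submitters' processing notes and the methods, the authors trimmed reads with Trimmomatic 0.39, aligned them to mm10 with BWA 0.7.17, removed duplicates with Picard 2.26.6 and called peaks with MACS2 2.2.7.1. HOMER 4.11 served the authors for motifs and was not used here. The deposited fold enrichment of each peak is the ratio that MACS2 gave the authors. MACS2 also gave the authors the deposited −log10 p-values and −log10 q-values, library by library. The deposited score repeats the −log10 q and was not analysed, and the deposited summit offsets gave summit positions. No input library is named. The methods give an approximate sequencing depth common to the libraries, while the lists hold no read total per library, so the precision of each fold was read from fragments at the summit.

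The background of each library was recovered from a search between 0.3 and 4 in steps of 0.0005 over folds up to 30, under which 96.0% to 99.97% of folds gave whole fragments within 0.02. A start site overlaps the 1 kb around a transcript start. Genes came from GENCODE M21 and promoters from RefSeq. Python 3.11.15, pandas 2.3.3, numpy 2.4.6, scipy 1.17.1 and pysam 0.24.0 were used, and the recovery of backgrounds and of sites was tested on simulated data.

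No test was run, because folds are relative to each library and no counts across libraries are available in the lists. The members and lists were chosen with earlier results of these data known. Named are the 10 genes, genes that start within 1 kb of their sites, the highest gene of each other list, genes of those lists with no peak in either tagged replicate, and the 3 genes most like Ppp1r15b with no other gene start within 1 kb. Tulp2 and the other genes without a site or start site were named after their values were seen. Gcn1 and Ero1a of the lists are annotated as Gcn1l1 and Ero1l. Alternatives covered the minimum fold and q, peak length, the control filter, the shared overlap, the gene region, the start window and leaving out each replicate.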

Additional observations from a re-analysis of the deposited data

How the results depend on the processing

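The count of 9 genes with a site ranged from 6 to 10 over the alternatives that kept all replicates, and that of 9 genes with a start site from 6 to 9. It was 6 for both with a minimum fold of 10, without Ppp1r15a, Eif2ak2, Eif2ak3 and Eif2ak4. Sharing at least 50% of each peak left 8 genes with a site, without Ppp1r15b and Eif2ak2, and 7 with a start site, without Eif2ak1 as well. Eif2ak2 gained a site only with 50 kb on either side. The number of sites in the regions, 17, moved most, to 7 with a minimum fold of 10, 10 in the gene body alone, 11 with 2 kb and 30 with 50 kb on either side, since a wider region takes in more sites. The 51 other pathway genes with a site ranged from 36 to 54.

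Leaving out each replicate in turn, where a remaining tagged replicate alone gave the sites, left 9 to 9 genes with a site and 9 to 9 with a start site, 17 to 18 sites and 51 to 53 other pathway genes. The gene counts could not fall in these runs. Each site needs a kept peak of both tagged replicates, and dropping a control only loosens the filter. No paired analysis was possible because no result came from a test and the lists give no counts shared between libraries. Sites with folds near 6 rest on as few as 13 fragments in replicate 1, so counting error alone leaves their presence or absence uncertain. The effect of sequencing depth was not tested.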
